A study of Mus musculus with 6 samples.

Results

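Glutathione S-transferases were examined through 9 genes of the alpha, mu, pi, theta, omega and microsomal classes in mouse mammary tumors. They were taken by symbol from the genes with a probe set annotated to a single gene, 9 of 12393 genes and 15 of 20380 such probe sets. The choice of family was made with earlier results of these tumors in view, so the values are a description and give no independent support for a direction. Where a gene had several probe sets, values are from the one whose 6-array mean was highest, and the others were checked. Mice with tumors had received vehicle or a combination of VX680, miltefosine and WP1066 for 21 days. VX680 inhibits Aurora kinases, miltefosine is an alkylphosphocholine, and WP1066 inhibits JAK2 and STAT3 signalling. Each group held 3 tumor samples with 1 Affymetrix array per sample, and replicate numbers only name the arrays in accession order and pair none across groups. Strain, tumor model, age and doses are not stated in the sources at hand, and nothing in the labels ties the samples of a group to separate mice, so the spread between them may be technical.

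Glutathione transferases attach the tripeptide glutathione to electrophilic compounds, which makes them more soluble and ready for export by transporters of the ABCC family. The cytosolic enzymes work as dimers within a class, whereas the microsomal enzymes are membrane proteins of a separate family. Many of these genes can be induced through the transcription factor NRF2, which binds antioxidant response elements, and epithelial tissues are known for high levels of the pi and mu classes.

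Higher mean levels in drug-treated tumors were found for 7 of the 9 genes and lower means for 2, where 47.9% of all genes had a higher and 52.1% a lower mean. Gsta3 had the largest difference, a 2.03-fold higher mean, followed by the mu class genes Gstm2 and Gstm1 with 1.39-fold and 1.28-fold higher means. The theta, omega, microsomal and second alpha gene had means that were 1.04-fold to 1.15-fold higher, and the mu gene Gstm5 and the pi gene Gstp1 had means 1.02-fold and 1.05-fold lower. None of these differences passed the threshold of an adjusted p of 0.05. In limma, a linear model with variances moderated over all genes, 0 of the 9 genes and 0 of 12393 genes (0%) passed, and 3 of the 9 genes against 10.3% of all genes had an unadjusted p under 0.05, all 3 with higher means, as for 5.37% of all genes. The lowest drug array exceeded the highest vehicle array for 4 of the 9 genes, as for 7.73% of all genes. The reverse held for 0 of the 9 genes and 9.37% of all genes, so that in either direction the groups were separate for 4 of the 9 genes and 17.1% of all genes. The median log2 difference was 0.17 over the members and -0.01 over all genes. Because the members were chosen with this comparison known, nothing is read from these shares.

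Promoter sequence was set beside the values for the gene with the largest difference, for the gene with the smallest unadjusted p among the members and for both genes with lower means. RefSeq windows on GRCm38.p6, from 250 bases before to 50 bases after a transcription start, were found for 8 of the 9 genes, without Gsta4. The windows shown are chr1:21240335-21240634 on the plus strand for Gsta3, chr3:108017769-108018068 on the minus strand for Gstm1, chr3:107895604-107895903 on the plus strand for Gstm5 and chr19:4037863-4038162 on the minus strand for Gstp1. They are written from 5′ to 3′ on the strand of the gene. Capitals mark matches to the core of the antioxidant response element, searched on both strands as TGACNNNGC or TGAGNNNGC.
Gsta3: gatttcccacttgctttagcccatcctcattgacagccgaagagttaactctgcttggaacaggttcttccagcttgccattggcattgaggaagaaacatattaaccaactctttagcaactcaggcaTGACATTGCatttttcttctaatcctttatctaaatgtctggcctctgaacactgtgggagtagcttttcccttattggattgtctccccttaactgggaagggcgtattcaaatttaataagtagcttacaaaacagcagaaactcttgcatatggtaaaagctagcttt
Gstm1: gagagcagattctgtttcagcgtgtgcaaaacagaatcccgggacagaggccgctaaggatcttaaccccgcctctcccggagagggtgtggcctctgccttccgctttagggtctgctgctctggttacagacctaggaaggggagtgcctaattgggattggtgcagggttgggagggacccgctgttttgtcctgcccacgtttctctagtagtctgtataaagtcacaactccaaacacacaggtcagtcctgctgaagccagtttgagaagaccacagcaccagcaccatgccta
Gstm5: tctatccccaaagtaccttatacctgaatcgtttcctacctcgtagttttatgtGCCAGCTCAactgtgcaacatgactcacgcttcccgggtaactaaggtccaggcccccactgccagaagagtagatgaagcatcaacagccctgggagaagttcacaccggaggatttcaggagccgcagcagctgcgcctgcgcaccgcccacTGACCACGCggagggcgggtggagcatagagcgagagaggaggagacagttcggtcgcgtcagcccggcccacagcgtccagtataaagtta
Gstp1: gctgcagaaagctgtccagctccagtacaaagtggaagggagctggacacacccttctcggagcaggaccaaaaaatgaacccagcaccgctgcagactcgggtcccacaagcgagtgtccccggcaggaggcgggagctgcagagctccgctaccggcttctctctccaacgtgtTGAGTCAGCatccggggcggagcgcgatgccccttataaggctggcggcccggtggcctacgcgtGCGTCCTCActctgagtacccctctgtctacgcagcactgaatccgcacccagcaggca
A match to one or the other form was present in 27.8% of all 32851 promoter windows and in 5 of the 10 windows of the members. Counted by gene, 5 of the 8 genes held a match, namely Gsta3, Gstm5, Gstp1, Gstt1 and Mgst1. The form TGACNNNGC alone was in 12.4% of windows and TGAGNNNGC in 17.6%. In Gsta3 the match, TGACATTGC, began 121 bases before the start. Neither of the RefSeq windows of Gstm1 held a match, nor did that of Gstm2. Gstp1 held TGAGTCAGC beginning 74 bases before the start, and this site overlaps a match to TGACTCA, the site of AP-1 factors, on the opposite strand. TGACTCA was also in the window of Gstm5, outside its capitals, and in 5.2% of all windows. Of the genes with matches, Gsta3, Gstt1 and Mgst1 had higher means and Gstm5 and Gstp1 had lower means. Whether matches go with the differences was not tested. A match in these windows is a description of the letters and not a measured binding site.

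The alpha class was represented by Gsta3 and Gsta4. Gsta3, known in the mouse for conjugating the epoxide of aflatoxin, had log2 values of 5.16, 5.23 and 5.37 in the vehicle tumors and 6.59, 5.65 and 6.58 in the drug-treated tumors. Drug replicates 1 and 3 were close to each other, drug replicate 2 lay nearer to the vehicle arrays, and the groups were separated by a gap of 0.28. The means were 5.25 ± 0.11 and 6.27 ± 0.54 (SD, n = 3 each), a log2 difference of 1.02 ± 0.26 (SE) with a limma adjusted p of 0.36. By size of difference Gsta3 ranked 64 of 12393 genes, and by unadjusted p it ranked 212. The spread lay in the drug group, whose values ranged over 0.95 against 0.21 in vehicle. Without drug replicate 2 the difference was 1.33 ± 0.08 (SE), and the limma adjusted p was 0.0383, within a range of 0.0383 to 0.598 over the 15 alternatives tried. Drug replicate 2 was named after its low value was seen, and leaving out the lowest drug array can only raise the difference. With that array left out, 3 genes passed over all genes, Gsta3, Slc2a9 and Serpinb2.

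The other probe set of Gsta3 read 3.74, 3.41 and 4.01 in vehicle tumors and 4.42, 3.72 and 4.45 with the drug combination, with the groups overlapping. It ordered the drug arrays as the first probe set did, with drug replicate 2 lowest, and its difference was 0.47. Its mean of 3.96 was higher than that of 17.8% of the single-gene probe sets, in the low part of the scale. Gsta4, which conjugates hydroxynonenal, a product of lipid peroxidation, had values of 8.10, 7.95 and 8.06 in vehicle tumors and 8.28, 8.07 and 8.28 with the drug combination. As in Gsta3, drug replicate 2 was the lowest drug array, and here it fell within the vehicle range. The log2 difference of Gsta4 was 0.17 ± 0.08 (SE, limma adjusted p = 0.521).

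**Figure D1:**
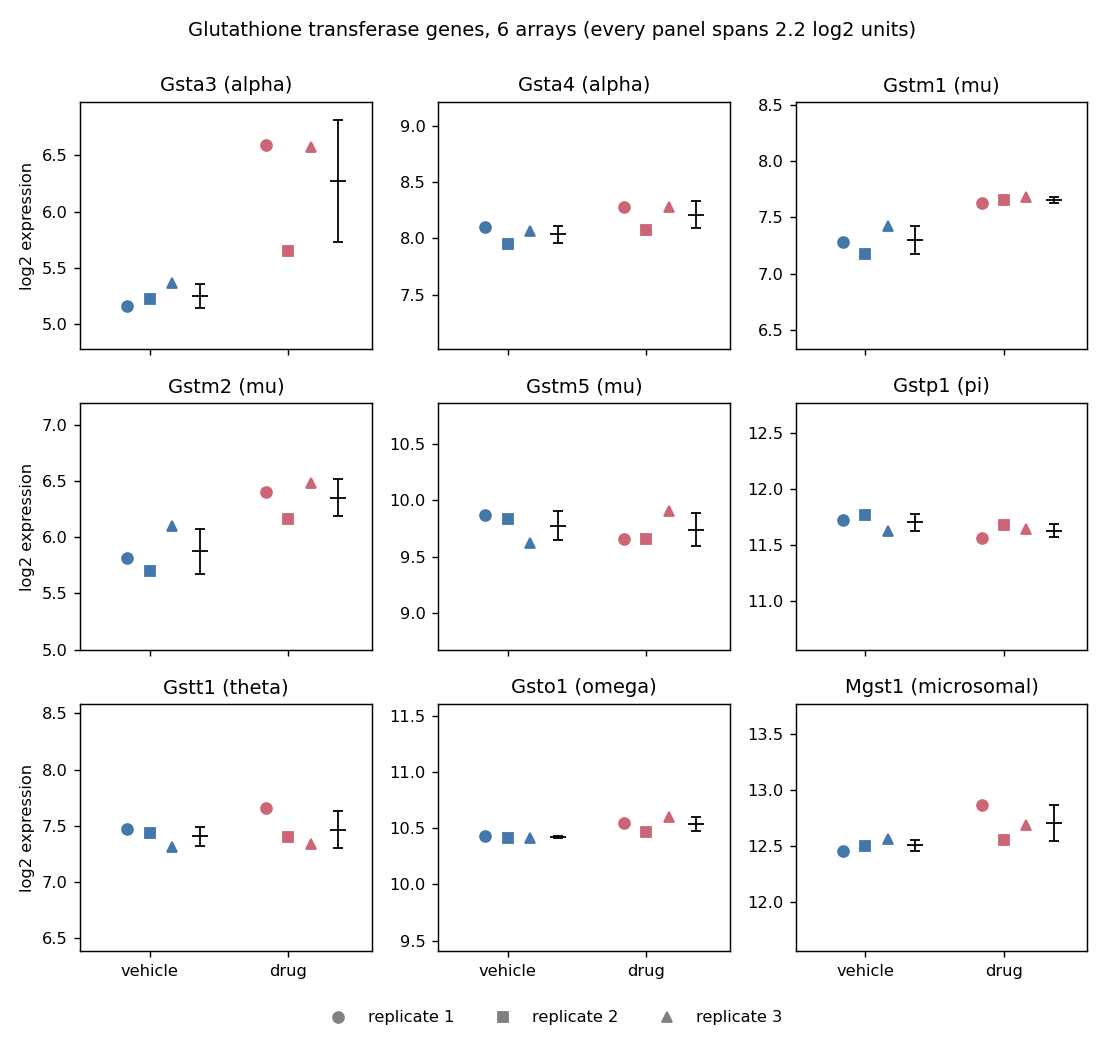
Log2 expression (vertical axes) of the 9 glutathione transferase genes in the 3 vehicle (blue) and 3 drug-treated (red) tumors, 1 symbol shape per replicate number (numbers pair no arrays across groups), with the mean and SD in black; every panel spans the same range but starts at a different level. The groups do not overlap for Gsta3, Gstm1, Gstm2 and Gsto1, and drug replicate 2 of Gsta3, at 5.65, sits apart from the values of 6.59 and 6.58.

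Among the mu class members, Gstm1 and Gstm2 had higher means and Gstm5 did not. Gstm1, a broadly acting conjugating enzyme, had values of 7.28, 7.18 and 7.43 in vehicle tumors and 7.62, 7.66 and 7.68 with the drug combination. The drug arrays lay within 0.06 of one another and all above the vehicle arrays. The means were 7.29 ± 0.13 and 7.65 ± 0.03 (SD, n = 3 each), and the difference of 0.36 ± 0.07 (SE) had a limma adjusted p of 0.29, the smallest of the 9 genes. Gstm2 had values of 5.82, 5.70 and 6.10 in vehicle tumors and 6.40, 6.17 and 6.49 with the drug combination. Its groups were separated by 0.07 only, between vehicle replicate 3 and drug replicate 2. The difference of Gstm2 was 0.48 ± 0.13 (SE, limma adjusted p = 0.376). Gstm5 had values of 9.87, 9.83 and 9.62 in vehicle tumors and 9.65, 9.66 and 9.91 with the drug combination, so that the highest array of all was a drug array and the lowest a vehicle array. Its difference was -0.03 ± 0.10 (SE, limma adjusted p = 0.935), and its sign turned without any of 3 single arrays.

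The probe sets of Gstm1 did not give 1 size of difference. The one used carries the suffix _x_at, by which the maker marks probes that may also bind other transcripts, and mu class genes are close in sequence. Of the 2 probe sets without that mark, 1 also had separate groups, with 6.77, 6.89 and 7.01 in vehicle tumors and 7.15, 7.19 and 7.27 with the drug combination. Its difference was 0.31. The other unmarked probe set had a difference of 0.06 and the second marked one of 0.20, both with overlapping groups. With all probe sets of a gene averaged, the difference of Gstm1 was 0.23 and that of Gsta3 was 0.75.

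The mu genes lie next to one another in the GRCm38.p6 gene table, in the order Gstm5, Gstm7, Gstm6, Gstm3, Gstm2, Gstm1 and Gstm4, with 0 other coding genes between them. All 7 were measured, with Gstm6 low on the scale at 4.13 in vehicle. Their log2 differences in that order were -0.03, 0.13, 0.02, -0.04, 0.48, 0.36 and -0.20, so the pair with non-overlapping groups were neighbours. Gstm4, on the other side of Gstm1, had values of 5.95, 6.06 and 5.85 in vehicle tumors and 5.94, 5.79 and 5.52 with the drug combination, and its difference of -0.20 ± 0.12 (SE) had the opposite sign (limma adjusted p = 0.601). Whether the differences of neighbouring genes differ from each other was not tested.

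**Figure D2:**
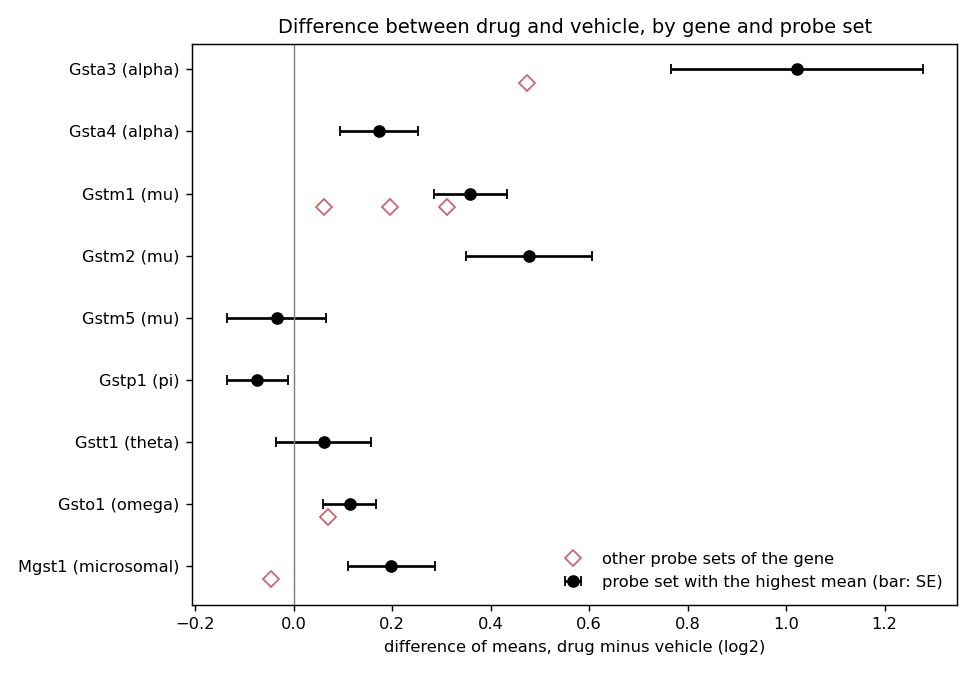
Difference of means between drug and vehicle on the log2 scale (horizontal axis) for each glutathione transferase gene, with the SE of the probe set used as a bar and the other probe sets of the gene as open diamonds. The other probe sets of Gsta3, Gstm1 and Gsto1 gave smaller differences of the same sign, and that of Mgst1, at -0.05, had the opposite sign.

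The pi and theta class members, Gstp1 and Gstt1, showed small differences with overlapping groups. Gstp1, an abundant enzyme of many epithelial tumors that also binds the kinase JNK, had values of 11.72, 11.76 and 11.62 in vehicle tumors and 11.56, 11.67 and 11.64 with the drug combination. The difference was -0.07 ± 0.06 (SE, limma adjusted p = 0.722), and it stayed below 0 in all 15 alternatives, between -0.13 and -0.04. Among these, the level filter, the trend and robust priors and the mean of its 1 probe set could not change it. Mouse Gstp1 has a near-identical neighbour, Gstp2, whose transcripts its probe set may also bind. Gstt1, a theta class enzyme that acts on small halogenated compounds, had values of 7.47, 7.44 and 7.31 in vehicle tumors and 7.66, 7.40 and 7.34 with the drug combination. The higher mean of Gstt1 came from drug replicate 1, since the other drug arrays lay within the vehicle range. Its difference was 0.06 ± 0.10 (SE, limma adjusted p = 0.875), and it was -0.03 without drug replicate 1.

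The omega and microsomal members, Gsto1 and Mgst1, had small, mostly positive differences. Gsto1, which reduces dehydroascorbate and removes glutathione from proteins, had values of 10.43, 10.42 and 10.41 in vehicle tumors and 10.54, 10.47 and 10.60 with the drug combination. The vehicle arrays agreed within 0.02 and all drug arrays lay above them, by 0.03 or more. The difference was 0.11 ± 0.05 (SE, limma adjusted p = 0.53), while the other probe set of Gsto1 had overlapping groups and a difference of 0.07. Mgst1, a transferase and peroxidase of the endoplasmic reticulum and outer mitochondrial membrane, had values of 12.46, 12.50 and 12.56 in vehicle tumors and 12.87, 12.55 and 12.69 with the drug combination. Here drug replicate 2 fell just below the highest vehicle array, by 0.01. The difference of Mgst1 was 0.20 ± 0.09 (SE, limma adjusted p = 0.513), and it was 0.12 without drug replicate 1 and 0.076 with its probe sets averaged. Its other probe set had a mean of 2.77, higher than that of 3.55% of probe sets, and a difference of -0.05.

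Several members shared the ranks of some arrays, and the same ranks were not counted over all genes. Drug replicate 3 was the highest of the 6 arrays for 5 genes and drug replicate 1 for 3, while drug replicate 2 was the highest for 0 and the lowest drug array for 5. The median deviation of the 9 genes from their 6-array means was 0.15 on drug replicate 1, -0.03 on drug replicate 2 and 0.15 on drug replicate 3. On the vehicle arrays it was -0.04, -0.11 and -0.06. In Gstm1, Gstm5, Gstp1 and Gstt1 another drug array was the lowest of its group. Without drug replicate 2 the drug arrays lay above the vehicle arrays for 6 of the 9 genes, against 12.3% of all genes with these 5 arrays, and the members' median difference was 0.24. Leaving out an array can only add to the genes with separate groups. Drug replicate 2 was named after it was seen to be lowest for several of these genes. With any other single array left out the count was 4 or 5, against 11.9% to 13.4% of all genes.

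**Figure D3:**
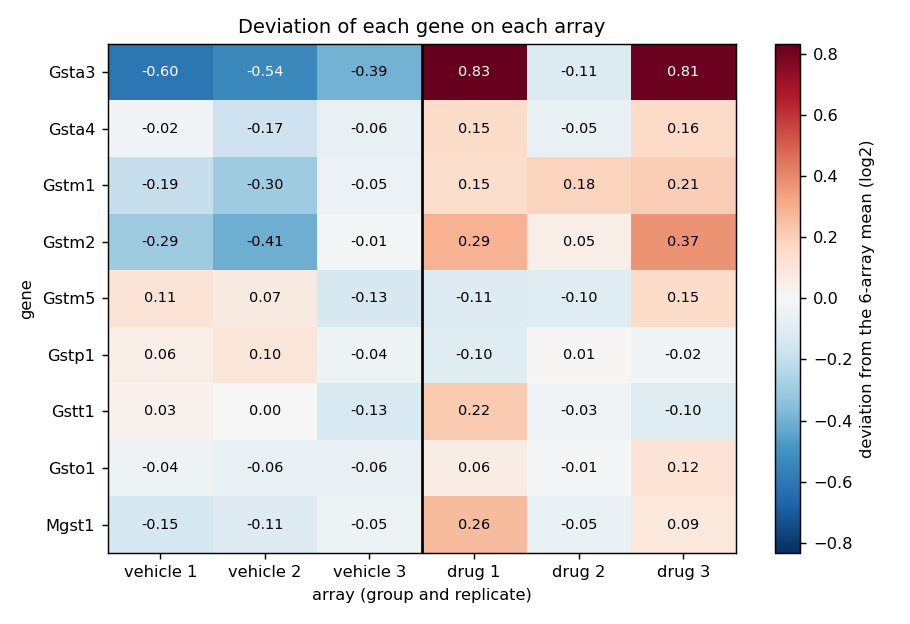
Deviation of each of the 9 genes (rows) from its own mean over the 6 arrays (columns), in log2 units, with red above and blue below the mean and the value printed in each cell. Drug replicates 1 and 3 hold the largest positive deviations of Gsta3, 0.83 and 0.81, while drug replicate 2 is at -0.11.

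The profiles closest to those of Gsta3 and Gstm1 were found by the root-mean-square difference of mean-centred log2 values over the 6 arrays, among the 12392 other genes. Nearest to Gsta3 were Slc2a9, a urate transporter, at 0.16, Foxi1, a forkhead transcription factor, at 0.17, and Pkp1, a plakophilin of desmosomes, at 0.23, where the median over all genes was 0.61. Nearest to Gstm1 were Cd44, a hyaluronan receptor, at 0.05, the transferase Mgst3 at 0.06 and Ankrd6 at 0.06, against a median of 0.22. The closest profiles were picked from many genes over few arrays and describe these arrays only.

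Of the remaining glutathione transferases and their relatives, 15 of 19 listed were measured, and 11 had higher and 4 lower means, with a median of 0.13 and 0 past the limma threshold. Mgst3, a microsomal enzyme, was 1 of the 15 with non-overlapping groups, where 17.1% of all genes had them. Its values were 9.38, 9.22 and 9.64 in vehicle tumors and 9.80, 9.75 and 9.73 with the drug combination, a difference of 0.35 ± 0.11 (SE, limma adjusted p = 0.398). Mgst2, which can also make leukotriene C4, differed by 0.37 ± 0.15, with overlapping groups. The theta genes Gstt2 and Gstt3 differed by 0.29 and 0.03, Gstz1 of the zeta class by 0.03, and Gsta2, near the bottom of the scale at 3.04 in vehicle, by 0.22. Gstk1, the mitochondrial kappa enzyme, had the widest spread, with 5.95, 6.16 and 4.58 in drug-treated tumors, and a difference of -0.43 ± 0.43 (SE). Relatives that make or help make lipid mediators were Ptges at 0.33, Alox5ap at 0.22, Ltc4s at 0.20 and Hpgds at -0.18, all with overlapping groups. Over members and relatives together, 18 of 24 genes had higher means and 5 had separate groups with the drug arrays on top, beside 47.9% and 7.73% of all genes. The members made up 7 of the 18 and 4 of the 5, and they were chosen with this comparison known. Nothing is read from the pooled counts. Gstp3, a pi class gene outside the list and named after its values were seen, had 6.19, 6.13 and 6.05 in vehicle tumors and 7.01, 6.50 and 6.93 with the drug combination. Its difference of 0.69 ± 0.14 (SE, limma adjusted p = 0.29) stood beside -0.07 in Gstp1 of the same class, and drug replicate 2 was again the lowest drug array.

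Of 17 measured genes of glutathione synthesis and recycling, 13 had higher and 4 lower means, with a median difference of 0.07 between drug and vehicle. Anpep, an aminopeptidase, differed by 0.44 ± 0.06 (SE, limma adjusted p = 0.231), and Ggt7 and Oplah, of the gamma-glutamyl cycle, by 0.18 and 0.23. Chac1, which degrades glutathione, had lower values on every drug array than on any vehicle array, a difference of -0.34 ± 0.10 (SE, limma adjusted p = 0.383). Gclc, the catalytic subunit of the first step of glutathione synthesis, had 8.28, 8.08 and 8.04 in vehicle tumors and 8.20, 8.23 and 8.21 with the drug combination, a difference of 0.08 ± 0.07 (SE). Of 13 peroxidases, glutaredoxins and related enzymes 11 had higher means, with a median of 0.06, among them Glrx at 0.32, Gpx3 at 0.32, and Gpx4 and Glrx2 at 0.07 each. The groups overlapped for Gpx3 and Glrx2 and not for Glrx and Gpx4. Of 6 measured exporters of conjugates, 4 had higher means, with Abcc2 at 0.16, Abcc10 at 0.09, Abcc1 at 0.07 and Abcc3 at -0.16, and all had overlapping groups. In each of these lists 0 genes passed the limma threshold. Separate groups were found for 4 genes higher and 1 lower in the synthesis list, and for 2 higher among the peroxidases and related enzymes. Over all genes 47.9% had higher means, and 7.73% and 9.37% had separate groups, higher and lower with the drugs. Nothing is read from these counts, since the lists were chosen with earlier results of these data known.

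The list of regulators of transferase genes had differences of both signs. Nfe2l2, which encodes NRF2, had a difference of -0.06 ± 0.07 (SE), and Keap1, its inhibitor, of 0.00 ± 0.06 (SE), both with overlapping groups. Nfe2l1, a relative of NRF2, had 10.19, 10.06 and 10.09 in vehicle tumors and 9.79, 9.88 and 9.88 with the drug combination, a difference of -0.26 ± 0.06 (SE, limma adjusted p = 0.343). Cebpa, a CCAAT-binding factor, also had separate groups, lower with the drugs, at -0.18, while Nr1i3 and Arnt differed by 0.24 and 0.14 with overlapping groups. Of the 19 regulators 12 had higher means, with a median of 0.01. Of 21 measured NRF2 targets outside the transferases, some of them shared with the synthesis list, 17 had higher means, with a median of 0.08. Over all genes 47.9% had higher means. The quinone reductase Nqo1 had 6.17, 6.13 and 6.15 in vehicle tumors and 6.25, 6.33 and 6.25 with the drug combination, a difference of 0.13 ± 0.05 (SE, limma adjusted p = 0.475). Akr1b8, an aldo-keto reductase, differed by 0.36, Me1, malic enzyme, by 0.37 and Aldh3a1, an aldehyde dehydrogenase, by 0.22, each with non-overlapping groups. Aldh3a1 was near the bottom of the scale, at 3.12 in vehicle. Txnrd1, a thioredoxin reductase named after its values were seen, had separate groups the other way, at -0.13 ± 0.06 (SE, limma adjusted p = 0.496). In all, 6 of the 21 targets had separate groups with the drug arrays higher and 1 with them lower. The shares over all genes were 7.73% and 9.37%. The list was chosen with earlier results of these data known, so nothing is read from these counts. Among 17 other drug-metabolising enzymes 11 had higher means, with a median of 0.04. Cyp2f2, a cytochrome P450, had the largest difference there among the genes named, 0.95 ± 0.20 (SE, limma adjusted p = 0.29), while the acetyltransferases Nat1 and Nat2 differed by 0.26 and 0.11 and Aldh1a3 by 0.45. Nat1 was low on the scale, at 3.28 in vehicle. By limma 0 genes of these lists passed.

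**Figure D4:**
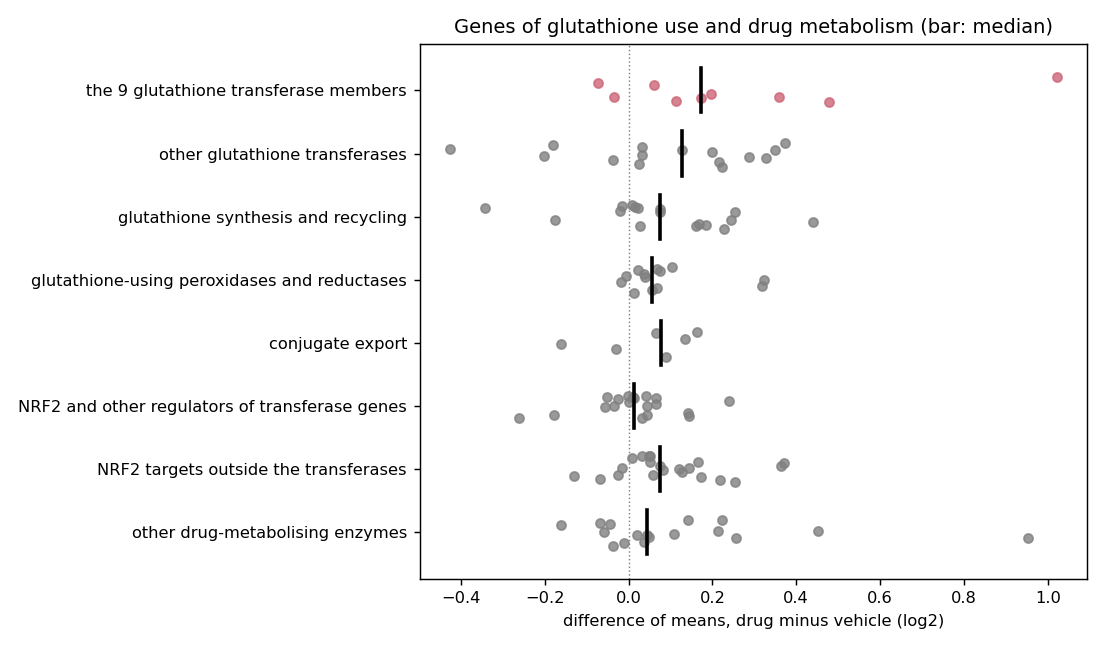
Log2 difference of means between drug and vehicle (horizontal axis) for each gene of the 9 transferase members (red) and of 7 lists of related genes (grey), with the median of each list as a black bar. The medians of the related lists lie between 0.01 and 0.13 and that of the members at 0.17, and Gsta3 at 1.02 and Cyp2f2 at 0.95 lie furthest to the right.

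Cell type markers varied between these tumors, and fewer cells of a type cannot be told apart from less RNA per cell in bulk samples. The mean log2 level of 10 luminal epithelial markers was 10.31 to 10.48 in vehicle and 10.20 to 10.45 in drug-treated tumors, so epithelial transcripts were present in both groups. Of the 10 luminal markers 3 had separate groups, as did 17.1% of all genes, and they are named here after their values were seen. Foxa1 at -1.20 ± 0.22 (SE, limma adjusted p = 0.273) and Elf3 at -0.30 were lower on every drug array, and Elf5 at 0.14 was higher on every one. For 3 cell types the mean over the markers had non-overlapping groups, higher in drug, but not every marker did. The mean of 8 basal epithelial markers was 7.51 to 7.76 in vehicle and 7.91 to 8.10 in drug-treated tumors, with Oxtr lowest at 3.82. Among them 5 of 8 were higher, 4 of these with separate groups. The mean of 8 mast cell markers was 4.68 to 5.23 and 5.35 to 5.76, with Fcer1a lowest at 2.96. Here 6 of 8 were higher, 4 of them with separate groups. The mean of 5 red blood cell markers was 4.48 to 4.68 and 4.95 to 5.43, with Epb42 lowest at 3.39. All 5 were higher, 4 of them with separate groups. Hba-a1, Slc4a1 and Epb42 were low on the scale, with vehicle means of 3.44, 3.99 and 3.27. The gap between groups was 0.04 for Hba-a1, 0.06 for Slc4a1, 0.09 for Hbb-b2 and 0.47 for Alas2. Over all genes 7.73% had separate groups with the drug arrays higher. The basal, mast cell and red blood cell means were higher on every drug array than on any vehicle array, as were 4 of the 9 transferase members. The part of these cell types in the transferase differences was not tested. Skeletal muscle markers spanned 6.72 to 10.80 in vehicle and 4.34 to 9.89 in drug-treated tumors, a difference of means of -2.28 with 10 of 10 markers lower and overlapping groups. Adipocyte markers spanned 5.46 to 7.70 and 6.11 to 7.63, a difference of 0.19. Vehicle replicate 3 and drug replicate 2 were the highest of their groups, and drug replicates 1 and 3 were at 6.29 and 6.11. Whether adipocyte content bears on the transferase values of drug replicate 2 was not tested. The mean levels of fibroblast, endothelial, macrophage and hepatocyte markers differed by 0.20, 0.01, -0.13 and 0.07, with overlapping groups. With the muscle score as a covariate the difference of Gsta3 was 1.16, of Gstm2 0.56 and of Gstm1 0.39, and with the adipocyte score it was 1.06, 0.47 and 0.34. Without both arrays richest in muscle transcripts, vehicle replicate 3 and drug replicate 1, these differences were 0.92, 0.56 and 0.44.

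**Figure D5:**
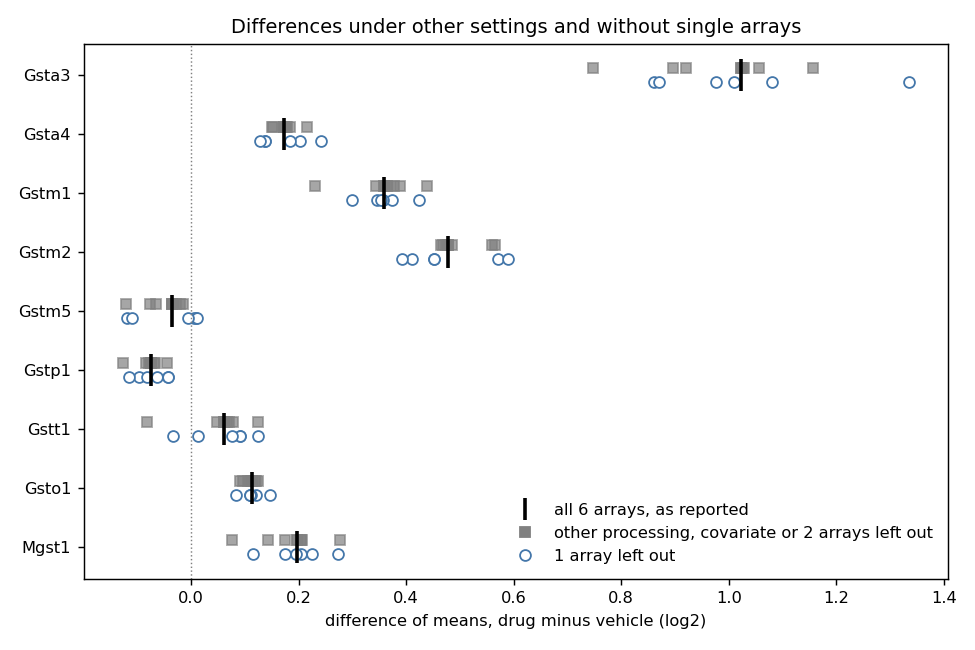
Log2 difference of means between drug and vehicle (horizontal axis) for each gene with all 6 arrays (black bar), with 1 array left out (open circles) and under other processing, a covariate or 2 arrays left out (grey squares). The values of Gsta3 span 0.75 to 1.33, those of Gstm2 0.39 to 0.59 and those of Gstm1 0.23 to 0.44, while those of Gstm5 and Gstt1 lie on both sides of 0.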

How the data were processed

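Total RNA of the tumors was isolated with a column kit and labelled with biotin, per the labels' protocols. The authors deposited 1 log2 expression value per probe set and array, made with Affymetrix Expression Console according to the submitters' processing notes. Version, summarisation and normalization are not given there or in the labels. The values ran from 1.88 to 14.14, from which the log base was inferred. Array medians lay between 6.70 and 6.73, so no further normalization was applied, and a change shared by most genes could be hidden. Detection calls were not used here. The small number of arrays limits the precision.

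Probe sets were named by a 2016 platform annotation. Of 22690 probe sets, 20380 had a single symbol, 691 several, 1555 none and 64 were controls; 1 with several symbols held transferases (Gsta1 and Gsta2) and was left out. For each of 12393 genes the probe set with the highest mean was kept. Groups were compared with limma 3.58.1 in R 4.3.3 (lmFit, eBayes, two-sided, threshold 0.05 after Benjamini-Hochberg adjustment over all genes), and the procedure was tested on simulated data. An exact permutation test of 3 against 3 arrays cannot give a two-sided p under 0.1. The members, gene lists and tests were chosen with earlier results of these data known. Named genes are the members, all measured relatives, the 4 genes of each list with the smallest unadjusted p, Nfe2l2, Keap1, Nqo1, Gclc and the 3 closest profiles to Gsta3 and Gstm1. Alternatives were the mean of probe sets, quantile or median scaling, a mean level of at least 5, trend and robust priors, array weights, covariates and arrays left out. Figures were drawn with matplotlib 3.10.9.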

Additional observations from a re-analysis of the deposited data

How the results depend on the processing

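Under the 15 alternatives the differences of Gsta3, Gsta4, Gstm1, Gstm2, Gsto1 and Mgst1 stayed above 0 and that of Gstp1 below 0, and 6 to 8 of the 9 genes had higher means. The level filter and the trend and robust priors could not change any of these differences. For genes with 1 probe set, the mean of probe sets could not either. With single arrays left out, the number of members past the limma threshold was 0 to 1, of all genes 0 to 3, of members with non-overlapping groups 4 to 6 (25.8% to 29.2% of all genes), and the median difference 0.12 to 0.24. Of the members so counted, Gstp1 without vehicle replicate 3 was lower with the drugs and the rest were higher. The passing member was Gsta3 without drug replicate 2, its lowest drug array, at 1.33. Gstm5 ranged from -0.12 to 0.012 and Gstt1 from -0.034 to 0.12 when single arrays were left out. Gstm5 was above 0 without vehicle replicate 1, drug replicate 1 or drug replicate 2 (0.01 each), and Gstt1 was below 0 without drug replicate 1. Without both muscle-rich arrays Gstt1 was -0.082 and 7 members had non-overlapping groups, 5 higher and 2 lower with the drugs, as did 41.1% of all genes. With all probe sets of each gene averaged, 2 members had non-overlapping groups and the median difference was 0.092. The cause of these changes was not tested. No paired analysis was possible because the labels give no replicate numbers shared between the groups. Without detection calls, the second probe sets of Gsta3 and Mgst1, low on the scale, may lie near background. The same holds for Gsta2, Gstm6, Abcc2, Aldh3a1, Nat1, Nr1i3, Ggt7 and Ankrd6, and for the markers Oxtr, Fcer1a, Epb42, Hba-a1 and Slc4a1. The vehicle means of these genes were below 4.55, the lower quartile of the means of single-gene probe sets.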
